A study of Mus musculus with 6 samples.

Results

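Rab GTPase genes were examined in the lenses of newborn mice (stage P0) with a lens-directed conditional deletion of Celf1 and in control lenses. Members were all genes whose symbol is Rab followed by a number and, at most, 1 further letter, and 47 of the 13931 genes in the table met this rule, which used no measured value. RNA-sequencing was performed on 3 control and 3 Celf1cKO libraries, and each library was made from 2 pooled lenses. The values are log2 CPM, where CPM is the read count of a gene scaled to the size of its library, normalized between libraries but not for gene length.

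Celf1cKO mice carried a germline knockout allele, Celf1lacZKI, and a floxed allele, Celf1flox, together with the Cre driver Pax6GFPCre, which is active in the lens from the placode stage and also in the pancreatic lineage. By its labels the control group was Celf1lacZKI/+, in which case both groups share a germline knockout allele and the controls keep a working copy. In the methods of the study the default control is instead a Celf1flox mouse that has no Cre, and which of these the control lenses were could not be settled. The mice were of a mixed C57BL/6J and FVB background. Celf1 encodes an RNA-binding protein that recognises GU-rich elements in 3′ untranslated regions (UTRs) and takes part in mRNA decay, splicing and translation.

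Rab proteins are small GTPases that give membranes their identity and direct vesicle traffic. They are switched on by guanine nucleotide exchange factors (GEFs), which load GTP, and switched off by GTPase-activating proteins (GAPs). They are anchored by prenyl groups, which a geranylgeranyl transferase adds and GDP dissociation inhibitors shield during extraction from membranes. Lens fiber cells build large membrane surfaces and then lose their organelles, and loss of RAB18 or of the RAB3GAP complex in humans causes Warburg micro syndrome, which includes congenital cataract.

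The libraries held 40694454 to 44387151 reads on the genes of the table, and 3 reads, taken as the smallest level that the depth can show, corresponded to 0.0609 to 0.0807 CPM. Celf1 measured 9.95, 9.94 and 9.34 log2 CPM in the control libraries and 8.93, 7.66 and 7.83 in the Celf1cKO libraries, a log2 fold-change of -1.60 (SE 0.335, limma adjusted p = 0.0269) without overlap between the groups. Celf1 RNA was thus reduced in the Celf1cKO lenses, to 0.33 of control on the scale of CPM, and not absent. This level also counts transcripts without the floxed exon, and the study reports a larger share of those in Celf1cKO lenses. Crystallin genes took 45.8 to 46.9% of the reads in control and 34.7 to 38.5% in Celf1cKO libraries, and the normalization therefore bears on all other genes. Of the listed markers of lens fiber cells, 9 of 10 were in the table, with summed levels of 305167 to 346963 CPM in control and 239355 to 255627 CPM in Celf1cKO libraries, and 3 were called lower. Of the 5 lens epithelium markers, the crystallin gene Cryab made up most of the summed level (12673 to 15690 CPM in control and 7470 to 9788 CPM in Celf1cKO libraries). The other 4 summed to 359 to 420.2 CPM in control and 128 to 311 CPM in Celf1cKO libraries. Cryab and Foxe3 were called lower, and the call of Cryab was lost with the replicate number as a block (limma adjusted p = 0.0658). Since these are whole lenses, fewer cells of a type and less RNA per cell cannot be told apart. What these marker changes contribute to the Rab values was not tested.

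A gene counted as called at a limma adjusted p under 0.05 (Benjamini-Hochberg, all 13931 genes), a log2 fold-change of more than 0.58 up or down, and a mean log2 CPM of more than 1. In all, 8 members were called higher in Celf1cKO lenses, namely Rab1a, Rab2a, Rab10, Rab11a, Rab18, Rab24, Rab29 and Rab40b. They were 8 of 47 members, or 17%, where 4.69% of all genes were called higher. None was called lower by limma, where 2.56% of all genes were. Among the members, 3 lower and 16 higher values had an unadjusted limma p under 0.05. Over all 13931 genes, 1903 lower and 2268 higher values did. For the members, limma voom on the recovered reads also called 0 lower and 8 higher. In either direction, 7.25% of all genes were called. The log2 fold-changes of the members ran from -0.92 to 1.48, with a median of 0.21 beside a median of -0.04 over all genes, and 30 members lay above 0 and 17 below. The control and Celf1cKO libraries did not overlap for 24 members, with 18 higher and 6 lower in Celf1cKO, or 51.1% beside 36.5% of all genes. Only genes with a mean log2 CPM of more than 1 could be called. Among these, 8 of 41 members (19.5%) were called. Of 10529 such genes in the table, 654 were called higher and 356 lower (9.59%). The median log2 fold-changes were 0.25 and 0.006, and 53.7% and 40.1% did not overlap.

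**Figure D1:**
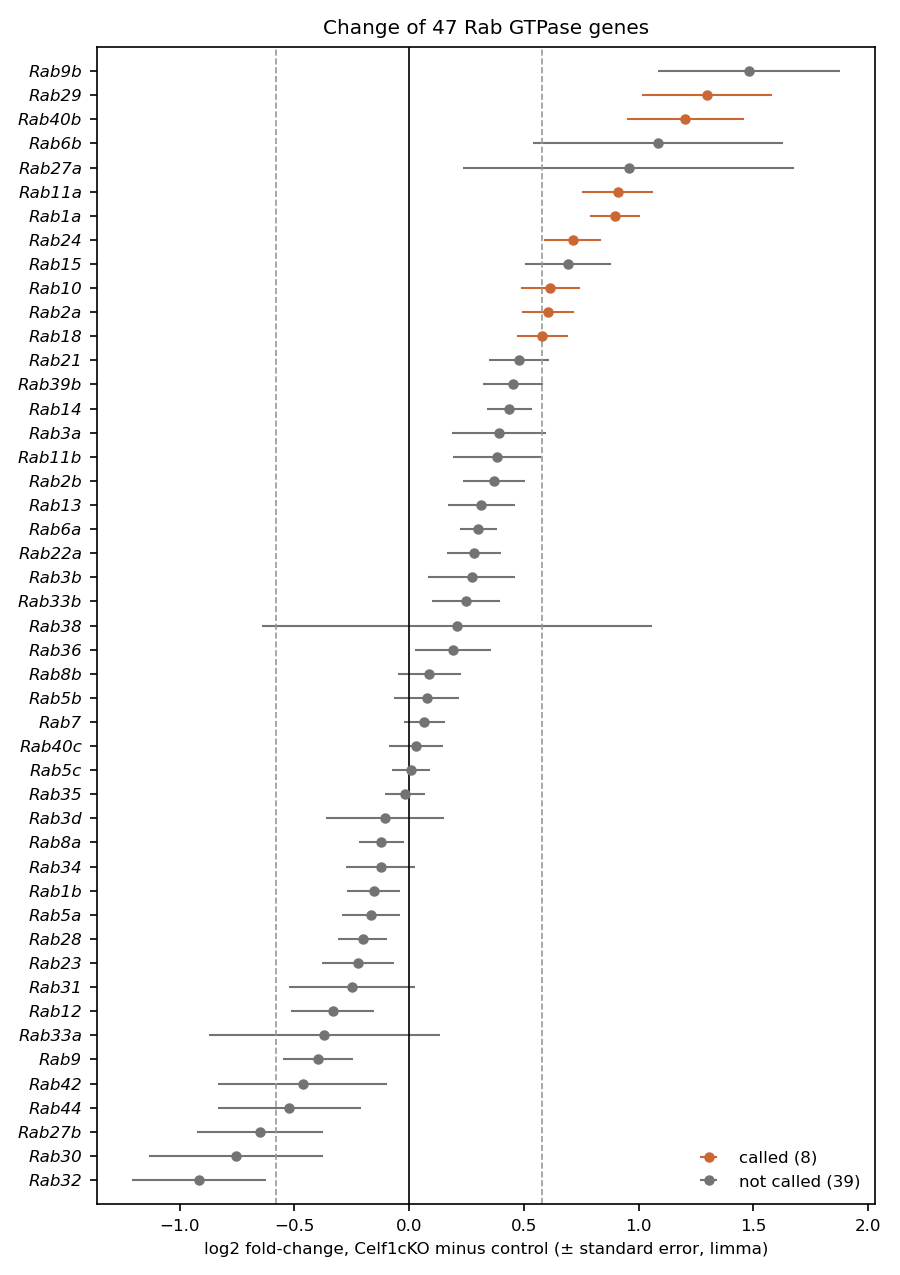
Log2 fold-change (Celf1cKO minus control, with its standard error) of each of the 47 Rab genes, ordered by value, with called members marked and dashed lines at 0.58 in either direction. All 8 called members lie on the side of higher expression, and the members range from -0.92 to 1.48.

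Together the 47 genes made up 0.121 to 0.131% of the reads in control libraries and 0.167 to 0.1996% in Celf1cKO libraries. Their normalized levels summed to 1387, 1390 and 1251 CPM in control and to 1587, 1823 and 1743 CPM in Celf1cKO libraries, a ratio of means of 1.28. An exact two-sided permutation test gave p = 0.1, the smallest that 3 against 3 libraries allow. The 39 members that were not called summed to 940.0 ± 56.3 CPM in control and 1029 ± 17.2 CPM in Celf1cKO lenses (SD, n = 3). The 8 called members, which were chosen on this contrast, went from 402 ± 23.2 to 689 ± 103 CPM (SD, n = 3).

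The calls rest on few libraries. When the libraries were left out in turn, 3, 0 and 2 members were called without control library 1, 2 and 3, and 9, 2 and 0 without Celf1cKO library 1, 2 and 3, where the counts over all genes were 587, 1, 428, 1879, 430 and 1. Without a variance trend only Rab1a was called, and with scaling by total counts 14 members were called higher.

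Members of the early secretory pathway and the Golgi showed the most calls. Of 10 such genes, 3 were called higher, 7 lay above 0 and the median log2 fold-change was 0.33. Rab1a, which directs transport from the endoplasmic reticulum to the Golgi, measured 6.35, 6.24 and 6.16 log2 CPM in control and 6.94, 7.29 and 7.21 in Celf1cKO libraries. All Celf1cKO libraries lay above all control libraries. The log2 fold-change was 0.90 (SE 0.110, 1.86-fold, limma adjusted p = 0.0094), and it ran from 0.83 to 1.0 when libraries were left out in turn, with the call kept in 4 of 6 cases. Its gene lies at chr11:20201432-20226856 on the plus strand (GRCm38, GENCODE M21, ENSMUSG00000020149).

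Rab2a, which acts between the endoplasmic reticulum, the Golgi and later compartments, measured 6.17, 6.07 and 5.86 log2 CPM in control and 6.5, 6.75 and 6.66 in Celf1cKO libraries. The groups did not overlap, and the log2 fold-change was 0.61 (SE 0.112, limma adjusted p = 0.0193, chr4:8535644-8607778, plus strand). The increase was below the fold-change threshold after centring on the median and after quantile normalization, at 0.578 and 0.53. Rab18, a gene of endoplasmic reticulum and lipid droplet contacts, measured 4.26, 4.46 and 4.32 log2 CPM in control and 4.79, 5.01 and 4.98 in Celf1cKO libraries (ENSMUSG00000073639). Its groups were separate as well, and its log2 fold-change of 0.58 (SE 0.109, limma adjusted p = 0.0198) placed it just inside the threshold, so that 4 of the other scalings or pseudocounts, with values between 0.54 and 0.56, left it uncalled. The Golgi genes Rab6a and Rab2b had log2 fold-changes of 0.30 and 0.37 without a call (limma adjusted p = 0.0531 and 0.116).

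In this group Rab6b and Rab30 varied widely among libraries of the same genotype. Rab6b, a Golgi Rab best known from neurons, measured 3.08, 4.07 and 2.33 log2 CPM in control and 3.44, 4.06 and 5.23 in Celf1cKO libraries. The groups overlapped, and the log2 fold-change of 1.08 (SE 0.544, limma adjusted p = 0.226) ran from 0.59 to 1.54 as libraries were left out. Rab30, which is found at the Golgi, measured 1.13, 1.45 and 2.59 log2 CPM in control and 0.95, 0.93 and 1.04 in Celf1cKO libraries. The groups did not overlap, but control library 3 stood well above the others, and the log2 fold-change of -0.75 (SE 0.379, limma adjusted p = 0.227) was -0.32 without it.

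Rab6b and Rab30 were also the only members whose 3′ UTR held the GU-rich element TGTTTGTTTGT, which joins overlapping copies of the core TGTTTGT and is given here as DNA. The element was found in 2 of 47 members (4.26%) and in 3.82% of 13152 genes with a 3′ UTR. The core was found in 11 members (23.4%) and in 27.4% of all genes, at 0.190 and 0.321 copies per kb of UTR. Of the 8 called members, Rab10 and Rab18 held the core and none held the full element. CELF1 is known to favour such sequences. As examples, 1 site each is shown of Rab6b (chr9:103181583-103181612, plus strand), Rab30 (chr7:92838414-92838443, plus strand) and Rab10 (chr12:3247910-3247939, minus strand), with the motif in capitals (GRCm38, GENCODE M21). Rab30 held 4 overlapping or separate copies of the full element, of which the first is shown. Rab18, with 2 copies of the core, and the other members that held only the core are not shown.
Rab6b: gtgctttttTGTTTGTTTGTttttgtatat
Rab30: caagagtttTGTTTGTTTGTtattttaaag
Rab10: tatctttgcTGTTTGTgttgcttccttcta
The Rab6b site starts at base 346 of a UTR of 4030 bases, the Rab30 site at base 2484 of 8596 bases and the Rab10 site at base 1857 of 2359 bases. These are sequence matches, and binding was not measured.

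Of 11 genes of early and recycling endosomes, 1 was called higher, 8 lay above 0 and the median log2 fold-change was 0.28. Rab11a, the main Rab of recycling endosomes, measured 6.84, 6.88 and 6.63 log2 CPM in control and 7.38, 7.96 and 7.74 in Celf1cKO libraries. Every Celf1cKO value exceeded every control value. The log2 fold-change was 0.91 (SE 0.154, 1.88-fold, limma adjusted p = 0.0162), with the call kept in 3 of 6 cases of a library left out (chr9:64715299-64737758, minus strand, ENSMUSG00000004771). Rab14, of early endosomes and the trans-Golgi network, measured 6.41, 6.20 and 6.21 log2 CPM in control and 6.60, 6.81 and 6.73 in Celf1cKO libraries. It passed the adjusted p threshold (limma, 0.0317) with a log2 fold-change of 0.44 (SE 0.097), below the fold-change threshold.

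Rab21, an early endosome gene that handles integrins, was the next member below the fold-change threshold. Its values were 4.67, 4.71 and 4.90 log2 CPM in control and 5.03, 5.44 and 5.26 in Celf1cKO libraries, without overlap. The log2 fold-change was 0.48 with a limma adjusted p of 0.056, or 0.042 with the replicate number as a block. Rab5c, an early endosome gene, measured 6.16, 6.08 and 6.05 log2 CPM in control and 6.19, 6.04 and 6.09 in Celf1cKO libraries. These values overlapped throughout, and the log2 fold-change was 0.01 (SE 0.084, limma adjusted p = 0.956), with a sign that changed under other scalings.

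Late endosome, lysosome and autophagy genes held 2 called members of 9, with 6 above 0 and a median log2 fold-change of 0.19. Rab24, an atypical Rab linked to autophagy, measured 4.64, 4.56 and 4.75 log2 CPM in control and 5.16, 5.54 and 5.39 in Celf1cKO libraries. The groups did not overlap, and the log2 fold-change was 0.71 (SE 0.124, 1.64-fold, limma adjusted p = 0.0167, chr13:55319743-55321946, minus strand). Its exons share 1258 bases with Prelid1 on the opposite strand, which had a log2 fold-change of 0.20 (limma adjusted p = 0.268). The strand setting of the authors' counting is not given in the sources used here, so reads of the overlap could belong to either gene.

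Rab29, a lysosome and Golgi gene that recruits the kinase LRRK2, was low in both groups. It measured 0.71, 0.10 and 0.65 log2 CPM in control, from 61, 38 and 60 reads, and 1.46, 2.12 and 1.78 in Celf1cKO libraries, from 116, 209 and 167 reads. The log2 fold-change was 1.30 (SE 0.283, 2.46-fold, limma adjusted p = 0.0305, chr1:131867224-131872887, plus strand). Rab29 passed the expression threshold through its Celf1cKO values, and its call was kept in 1 of 6 cases of a library left out.

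Rab7, the main Rab of late endosomes, was not called. It measured 6.88, 6.88 and 6.65 log2 CPM in control and 6.84, 6.89 and 6.89 in Celf1cKO libraries, with a log2 fold-change of 0.07 (SE 0.090, limma adjusted p = 0.659) that changed sign under quantile normalization. Rab9b, a relative of the late endosome gene Rab9, had the highest fitted value of all members but rested on few reads, with 5, 4 and 3 in control and 12, 19 and 23 in Celf1cKO libraries. Its fitted log2 fold-change of 1.48 (SE 0.396, limma adjusted p = 0.0531) depends on the prior count at this depth.

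Exocytosis and secretory vesicle genes held 1 called member of 9, with 6 above 0 and a median of 0.27. Rab10, which directs exocytosis and endosomal sorting, measured 6.68, 6.71 and 6.60 log2 CPM in control and 7.0, 7.48 and 7.36 in Celf1cKO libraries. The groups did not overlap, and the log2 fold-change was 0.62 (SE 0.129, 1.53-fold, limma adjusted p = 0.0268, chr12:3247428-3309969, minus strand). Its call was kept in 1 of 6 cases of a library left out and was lost under quantile normalization, at 0.56. The opposite-strand gene Rab10os shares 143 bases of exon with it and was also called higher, with 3.46, 3.36 and 3.33 log2 CPM in control and 4.31, 4.77 and 4.65 in Celf1cKO libraries (log2 fold-change 1.19, SE 0.146, limma adjusted p = 0.0094).

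Rab40b and Rab40c encode Rab proteins with a SOCS box, through which they join Cullin-based ubiquitin ligases. Rab40b measured 0.74, 1.22 and 1.07 log2 CPM in control, from 62, 85 and 81 reads, and 1.83, 2.54 and 2.27 in Celf1cKO libraries, from 151, 280 and 236 reads. The groups did not overlap, and the log2 fold-change was 1.20 (SE 0.257, 2.30-fold, limma adjusted p = 0.0287, chr11:121356125-121388251, minus strand). Rab40c, which was at 3.75 to 3.95 log2 CPM in control and 3.84 to 3.99 in Celf1cKO libraries, had a log2 fold-change of 0.03 (limma adjusted p = 0.888).

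**Figure D2:**
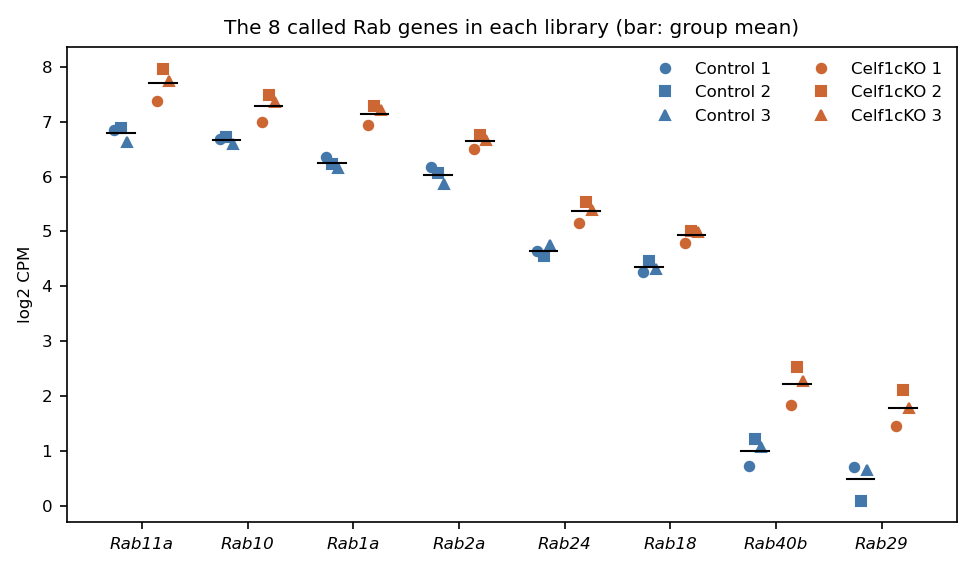
Log2 CPM of the 8 called Rab genes in each of the 3 control and 3 Celf1cKO libraries, with group means as bars. In each gene all Celf1cKO libraries lie above all control libraries, as in Rab1a, at 6.16 to 6.35 in control and 6.94 to 7.29 in Celf1cKO.

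The members of lysosome-related organelles, Rab32 and Rab38, build pigment granules in pigment cells, and Rab27a carries these granules to the cell edge. Rab32 was the lowest of the 47 by log2 fold-change, with 1.95, 1.21 and 1.34 log2 CPM in control and 0.90, 0.53 and 0.32 in Celf1cKO libraries. The groups did not overlap, and the log2 fold-change was -0.92 (SE 0.291, limma adjusted p = 0.0835). With the replicate number as a block the adjusted p was 0.0475, and Rab32 was then called lower, having passed the expression threshold through its control values (mean log2 CPM 1.5 in control and 0.58 in Celf1cKO).

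Rab27a measured -0.95, -2.97 and -0.14 log2 CPM in control, from 18, 3 and 34 reads, and -0.96, -0.31 and 0.09 in Celf1cKO libraries, from 20, 37 and 50 reads. The groups overlapped, and its log2 fold-change of 0.96 (SE 0.721, limma adjusted p = 0.406) was 0.15 to 1.57 with libraries left out. Rab38 measured 1.80, -0.71 and 2.02 log2 CPM in control and 0.75, 0.36 and 2.64 in Celf1cKO libraries, a log2 fold-change of 0.21 (SE 0.850, limma adjusted p = 0.895). Control library 2 was the lowest of all libraries for both Rab38 and Rab27a.

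The pigment cell markers were examined beside these genes. They summed to 16.8, 8.84 and 29.9 CPM in control and to 12.2, 13.5 and 31.9 CPM in Celf1cKO libraries, with 6 of 8 markers in the table and 0 called by limma, and the lowest sum was again in control library 2. In that library Dct and Pmel were at -1.66 and 0.45 log2 CPM, where the other libraries lay between 0.25 and 2.60 for Dct and between 1.56 and 3.59 for Pmel. Lens cells make no pigment, and the part of pigment cell RNA in the values of Rab38 and Rab27a was not tested.

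**Figure D3:**
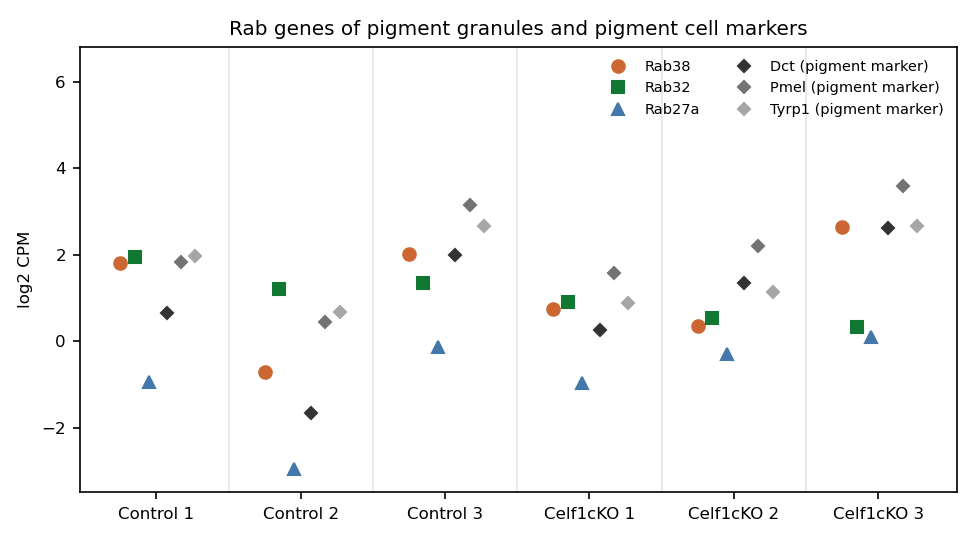
Log2 CPM of Rab38, Rab32 and Rab27a and of the pigment cell markers Dct, Pmel and Tyrp1 in each library. Control library 2 holds the lowest value of Rab38 (-0.71), Rab27a (-2.97), Dct (-1.66) and Pmel (0.45), whereas Rab32 is higher in every control library than in any Celf1cKO library. The pigment marker Oca2, which is not plotted, is lowest in Celf1cKO library 2 (1.23).

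The remaining members were not called, and their log2 fold-changes lay between -0.65 (Rab27b) and 0.69 (Rab15). Rab15, a gene of recycling endosomes, measured 1.52, 1.69 and 1.34 log2 CPM in control and 2.29, 2.09 and 2.24 in Celf1cKO libraries, without overlap (limma adjusted p = 0.0564). Rab39b, which is linked to autophagy, had a log2 fold-change of 0.45 (limma adjusted p = 0.066, or 0.031 with the replicate block). The cilium genes Rab23 and Rab28 had log2 fold-changes of -0.22 and -0.20, and Rab42 and Rab44 had -0.46 and -0.52. The secretory vesicle genes Rab3a, Rab3b and Rab3d had 0.39, 0.27 and -0.11, and the exocytosis genes Rab8a and Rab8b -0.12 and 0.09. With scaling by total counts the signs of Rab3d, Rab8a, Rab23 and Rab28 turned, as did that of Rab3d under quantile normalization.

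Expressed per kilobase of exon, the control lens used Rab7 most, at 5.42 log2 CPM per kb, followed by Rab11a at 5.20, Rab5c at 4.96, Rab2a at 4.94 and Rab10 at 4.85. The length used is that of all annotated exons of a gene, which may differ from that of the transcripts made in the lens. The ranges of the control libraries overlapped between each of these neighbours except Rab11a and Rab5c, while Rab5c and Rab10 were separate and Rab2a reached into the range of Rab11a. In Celf1cKO lenses Rab11a stood first at 6.11 log2 CPM per kb, with all of its libraries above those of Rab2a (5.54), Rab7 (5.49) and Rab10 (5.47), which overlapped. On the same scale Rab1a went from 4.32 to 5.22 while Rab1b was at 4.59 in control and 4.44 in Celf1cKO lenses. In control lenses Rab6a, at 4.85, was level with Rab10.

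Differences between close paralogs within a library do not depend on how the libraries were scaled, and 14 pairs were compared. The excess of Rab1a over Rab1b, which serves the same transport step, was 0.66, 0.23 and 0.53 on the log2 CPM scale in control and 1.36, 1.66 and 1.55 in Celf1cKO libraries. This is a shift of 1.05 (SE 0.153) that stayed between 0.93 and 1.15 with libraries left out. Per kilobase of exon, Rab1a was below Rab1b in control lenses, at a mean difference of -0.27, and above it in Celf1cKO lenses, at 0.78. The order in control lenses thus depends on the annotated exon lengths, 3799 bases for Rab1a and 2272 bases for Rab1b. Rab1b itself was at 5.69, 6.00 and 5.64 log2 CPM in control and 5.58, 5.63 and 5.65 in Celf1cKO libraries.

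Rab40b was below Rab40c by 3.01, 2.72 and 2.88 on the log2 CPM scale in control and by 2.07, 1.45 and 1.57 in Celf1cKO libraries, a shift of 1.17 (SE 0.208). The pairs Rab9b and Rab9 and Rab27a and Rab27b also did not overlap between the groups, with shifts of 1.88 and 1.61 that rest on few reads. For these 4 of 14 pairs the exact permutation test gave p = 0.1, the smallest possible, and 0.35 after Benjamini-Hochberg adjustment over the 14 pairs. The excess of Rab11a over Rab11b was 1.02, 1.32 and 1.61 in control and 1.45, 2.18 and 1.89 in Celf1cKO libraries, and that of Rab2a over Rab2b 2.88, 2.54 and 2.28 in control and 2.78, 2.84 and 2.80 in Celf1cKO libraries. Both pairs overlapped between the groups (exact permutation p = 0.2 and 0.4).

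**Figure D4:**
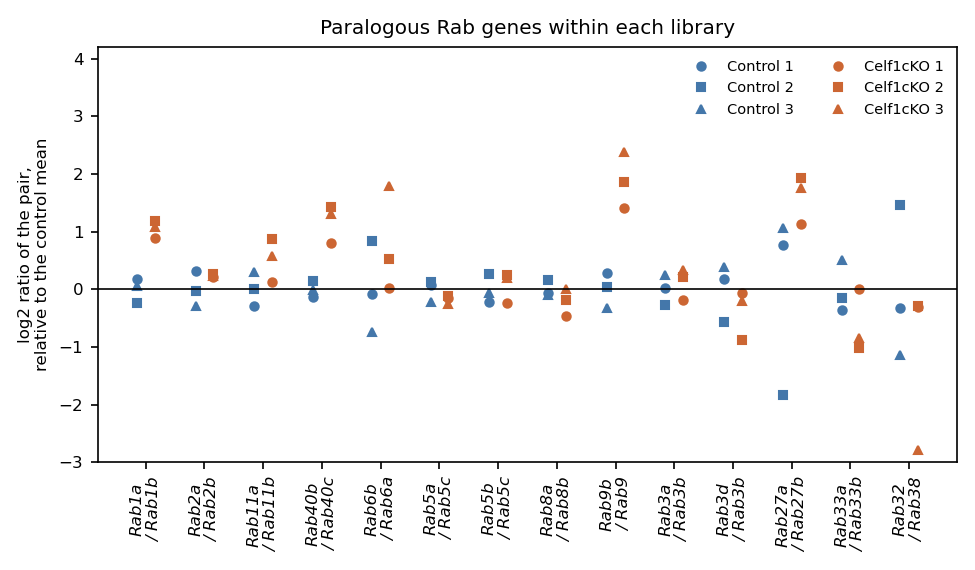
Log2 ratio of 14 pairs of paralogous Rab genes in each library, set relative to the mean of the control libraries. The Rab1a to Rab1b and Rab40b to Rab40c ratios of all 3 Celf1cKO libraries lie above those of all control libraries, with mean shifts of 1.05 and 1.17, whereas Rab2a to Rab2b overlaps.

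The promoters of Rab1a, Rab1b, Rab11a and Rab11b are shown because Rab1a and Rab11a were called and Rab1b and Rab11b were not, although the pairwise shift was separate between the groups only for Rab1a and Rab1b. They are the 150 bases before the RefSeq start (GRCm38.p6), at chr11:20201262-20201411 on the plus strand for Rab1a, chr19:5106997-5107146 on the minus strand for Rab1b, chr9:64737757-64737906 on the minus strand for Rab11a and chr17:33760487-33760636 on the minus strand for Rab11b. Capitals mark GGGCGG, the GC box, and CCAAT, on either strand.
Rab1a: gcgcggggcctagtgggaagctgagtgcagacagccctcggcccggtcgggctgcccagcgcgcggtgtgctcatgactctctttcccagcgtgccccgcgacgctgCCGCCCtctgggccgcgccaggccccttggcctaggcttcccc
Rab1b: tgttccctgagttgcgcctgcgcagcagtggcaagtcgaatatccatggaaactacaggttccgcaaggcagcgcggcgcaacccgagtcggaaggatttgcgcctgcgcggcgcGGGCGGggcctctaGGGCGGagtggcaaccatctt
Rab11a: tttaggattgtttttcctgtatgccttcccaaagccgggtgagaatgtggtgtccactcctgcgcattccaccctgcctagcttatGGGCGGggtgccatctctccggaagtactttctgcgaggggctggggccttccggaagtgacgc
Rab11b: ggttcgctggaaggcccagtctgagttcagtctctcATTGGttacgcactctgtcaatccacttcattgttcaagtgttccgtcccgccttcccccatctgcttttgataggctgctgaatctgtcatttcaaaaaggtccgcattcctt
GGGCGG was present in 27 of the 40 members with a promoter entry and in 50.4% of 13877 promoters of genes in the table, and in 4 of the 6 called members with an entry. CCAAT was present in 13 of 40 members and 26.9% of all promoters, and CACGTG, the E-box read by MiT and USF factors, in 2 of 40 and 5.92%. A member counted if any of its promoter entries held the motif, whereas the percentages are of single promoter entries. These shares are therefore not in the same unit. The promoters of both Rab1a and Rab1b held GGGCGG.

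The genes that act on Rab proteins were taken as a list of 157 genes in the table, of which 8 were called higher and 4 lower (7.64%, beside 7.25% of all genes), with a median log2 fold-change of 0.03. The 8 genes of prenylation and membrane delivery held 3 of the higher calls and no lower one, with a median of 0.21. Rabggtb, the catalytic subunit of the Rab geranylgeranyl transferase, measured 4.99, 5.07 and 5.22 log2 CPM in control and 5.63, 5.87 and 5.91 in Celf1cKO libraries (log2 fold-change 0.71, SE 0.113, limma adjusted p = 0.0141). Rabac1, which helps to free Rab proteins from their inhibitor, measured 5.21, 5.31 and 5.23 in control and 5.74, 5.95 and 5.92 in Celf1cKO libraries (0.62, SE 0.094, limma adjusted p = 0.0132). Its relative Arl6ip5 was also called higher, by 0.77 on the log2 scale (limma adjusted p = 0.018). The other members of this class, Rabif, Rabggta, Chm, Gdi2 and Praf2, had values between -0.11 and 0.32 and were not called.

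Among 52 GEF genes, 2 were called higher and 1 lower, and their median log2 fold-change was -0.07. C9orf72, a DENN-domain protein of membrane traffic, measured 3.88, 3.91 and 3.83 log2 CPM in control and 5.55, 6.30 and 6.22 in Celf1cKO libraries (log2 fold-change 2.15, SE 0.196, limma adjusted p = 0.0085), the largest value on the list. Its complex partners Smcr8 and Wdr41 had 0.05 and -0.44 (limma adjusted p = 0.854 and 0.161). C9orf72, Smcr8 and Wdr41 were counted in this class by the list used, and their activity on Rab proteins was not examined. Trappc2, a subunit of the TRAPP complexes that activate Rab1, was called at 0.69 (limma adjusted p = 0.0471), and Rab3il1, which activates Rab3a and Rab8 proteins, at -0.75 (limma adjusted p = 0.0315).

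Of 36 GAP genes, 2 were called higher and 1 lower, with a median of 0.07. Rabgap1l and Tbc1d24 had log2 fold-changes of 0.80 and 0.78 (limma adjusted p = 0.0275 and 0.0343), and Tbc1d22a had -0.78 (SE 0.119, limma adjusted p = 0.0133). The micro syndrome genes Rab3gap1 and Rab3gap2, which are counted among the GEF genes here for their action on Rab18, and Tbc1d20, a GAP gene for Rab1, had log2 fold-changes of 0.11, 0.22 and 0.13 and were not called (limma adjusted p = 0.672, 0.338 and 0.408).

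Of 61 effectors, 1 was called higher and 2 lower, with a median of 0.04. Ehbp1, an actin linker bound by Rab8 and Rab10, was called higher at 0.68 (limma adjusted p = 0.0312), and Rufy3 lower at -0.62 (limma adjusted p = 0.0395). Myo5b, the motor that moves Rab11a vesicles, measured 5.50, 5.92 and 5.73 log2 CPM in control and 5.09, 3.51 and 4.45 in Celf1cKO libraries, without overlap. Its log2 fold-change was -1.37 (SE 0.358, limma adjusted p = 0.0495), or -0.95 without Celf1cKO library 2 (adjusted p = 0.0553).

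Rab11fip4, a Rab11 effector, measured 3.44, 3.37 and 3.96 log2 CPM in control and 2.86, 1.40 and 2.42 in Celf1cKO libraries and was called only with the replicate block (log2 fold-change -1.36, limma adjusted p = 0.056, or 0.030 with the block). The block also added the GAP gene Tbc1d30, at -1.99 (limma adjusted p = 0.157, or 0.045 with the block), and the TRAPP subunit Trappc13, at 0.63 (0.164, or 0.040 with the block). Celf1cKO library 2 was the lowest for Myo5b and Rab11fip4, and also for the epithelial markers Foxe3, at 1.63 log2 CPM beside 3.41 to 5.06 in the others, and Cdh1, at 4.27 beside 5.70 to 7.08. The epithelial markers Pax6 (6.57) and Gja1 (3.46) were lowest there too, whereas Cryab was lowest in Celf1cKO library 3 (12.8). For Foxe3 and Gja1, Celf1cKO library 3 lay above library 1, unlike for Myo5b and Rab11fip4. The sum of the 6 markers of vessels and mesenchyme was likewise lowest in Celf1cKO library 2. It was 71.1, 50.7 and 63.5 CPM in control and 68.9, 7.40 and 26.3 CPM in Celf1cKO libraries. This is the same order of the Celf1cKO libraries as for Myo5b and Rab11fip4. Of these markers, Col1a1 was lowest in control library 2 instead, at -2.97 log2 CPM beside -2.24 in Celf1cKO library 2. What these markers share with the Rab effector values was not tested.

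**Figure D5:**
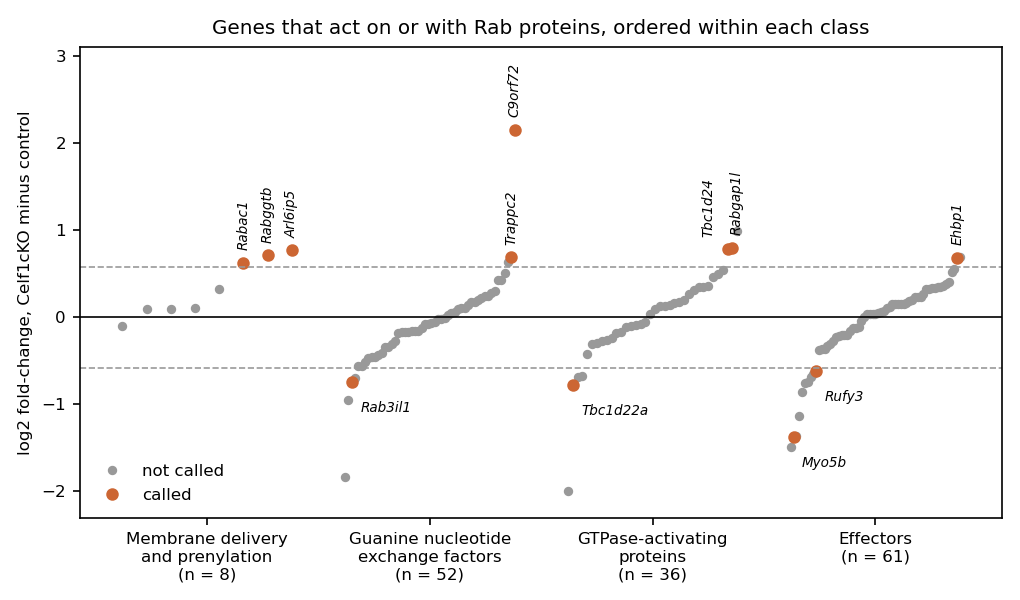
Log2 fold-change (Celf1cKO minus control) of the 157 genes that act on or with Rab proteins, ordered by value within 4 classes, with called genes named. Of the 8 genes of membrane delivery and prenylation, 3 are called higher, and C9orf72 has the largest value at 2.15.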

How the data were processed

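RNA of whole newborn lenses was sequenced in 3 control and 3 Celf1cKO libraries, grouped by the titles of the samples. Per the methods of the study and the submitters' processing notes, strand-specific paired-end reads were trimmed, aligned to GRCm38.p6 with STAR (2.7.8a), kept where uniquely mapped, counted with featureCounts (2.0.0) and normalized with edgeR. The authors deposited log2 CPM with a small prior count for 13931 genes, and no value is below -4.41. The authors' group means and the columns of their own comparison (fold-change, F, p-value and FDR) were not used. Whole reads were recovered from the steps of the deposited values (100% within 0.05 of a whole read). Counting intervals were not computed, and the spread between libraries served as the error.

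Differences were tested with limma (3.58.1, R 4.3.3) on the deposited log2 CPM of all genes, with a variance trend (prior degrees of freedom 3.4) and Benjamini-Hochberg adjustment. The thresholds were an adjusted p-value of 0.05, a log2 fold-change of 0.58 and a mean log2 CPM of 1. The p-values measure the spread between these libraries. The procedure was tested on simulated data. The main fit did not pair the samples. The deviations of same-numbered libraries from their group means correlated across genes at 0.33, 0.42 and 0.33. Those of differently numbered libraries correlated at -0.35 to 0.02. These correlations come from the same data, and neither the labels nor the study describe a pairing. The replicate number as a block was therefore only an alternative. The others were no variance trend, robust empirical Bayes, log2(CPM + 1), 4 other scalings, voom on the recovered reads, other thresholds and each library left out. The paralog differences and medians with libraries left out were added after seeing the data.

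The members, roles, Rab regulator and effector lists and markers were chosen with earlier results of these data known, and each gene was put in 1 role although many act at several. Values of every library were given for called members, members with an adjusted p under 0.05, the 5 with the highest control level per length, the 5 with the largest log2 fold-change among the others and those beside the fold-change threshold. Rab15, the paralogs, Smcr8, Wdr41, Rab3gap1, Rab3gap2, Tbc1d20, Rab11fip4, Tbc1d30 and Trappc13 were named after their values were seen. Positions, exon lengths and 3′ UTRs were from GENCODE M21 (GRCm38, all 47 members matched, best-ranked transcript with the longest UTR), and promoters were from RefSeq (40 of 47 matched). Plots used Python 3.11.15 with matplotlib 3.10.9. Markers of cornea and skin (0 of 6 in the table), blood (2 of 7, 1.33 to 4.74 CPM), neurons and retina (7 of 9, 3.91 to 26.7 CPM, 1 called lower) and vessels and mesenchyme (6 of 6, 7.40 to 71.1 CPM) were checked in the same way. Reads were not analysed here, and 1 gene of the Rab regulator list is not reported here.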

Additional observations from a re-analysis of the deposited data

How the results depend on the processing

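The count of 8 called Rab genes became 1 without a variance trend and 14 with total-count scaling, and was 0 to 9 with libraries left out. In the fit with the replicate block 9 were called, the same 8 and 1 lower, Rab32. The counts over all genes were 1010 (64.8% higher), 1255 (59.4% higher) with the block, 412 without the trend, 1846 (89.4% higher) with total-count scaling, 1530 without the fold-change threshold and 1 to 1879 with libraries left out. Total-count scaling moved the median log2 fold-change of all genes to 0.19 and that of the Rab genes to 0.43. The 12 called Rab regulators and effectors became 5 without the trend and 0 to 22 with libraries left out. Celf1 stayed at -1.60 without the trend (adjusted p = 0.0693) and was between -1.99 and -1.36 with libraries left out. Of the 47 members, 14 turned in sign under at least 1 alternative: Rab7 (-0.021 with quantile normalization, -0.0098 to 0.106 with libraries left out), Rab5b (-0.015 with quantile normalization), Rab3d (0.158 with quantile normalization, 0.115 with total-count scaling, -0.287 to 0.053 with libraries left out), Rab5c (-0.019 centred on the median, -0.070 with quantile normalization, -0.011 rescaled without crystallin genes, -0.034 to 0.045 with libraries left out), with total-count scaling Rab1b (0.071), Rab35 (0.207), Rab8a (0.105), Rab34 (0.101), Rab5a (0.059), Rab28 (0.023) and Rab23 (0.0021), and with libraries left out Rab35 (-0.046 to 0.0088), Rab31 (-0.51 to 0.019), Rab40c (-0.036 to 0.066), and Rab38 (-0.67 to 0.70). The shifts of Rab5b against Rab5c (-0.039 to 0.22) and Rab3a against Rab3b (-0.013 to 0.28) turned as well. The causes were not tested. Of all recomputed values, 980 were kept. For single genes this means the same direction and side of the threshold. For counts it means a count close to the main one, and for medians and paralog shifts a change within the spread between libraries. A call was lost in 113 and gained in 11, 28 values turned in sign, and 33 counts or values without a test moved. With about 3 reads at the floor, Rab9b, Rab27a and Rab33a could not be measured well.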
